A study of Arabidopsis thaliana with 24 samples.

Results

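The 10 genes described here belong to the low-oxygen response of Arabidopsis thaliana and were followed in shoots and in roots during the first day at 4 °C. They were chosen by name: 5 by locus (AT4G10270, AT1G33055, HRA1 at AT3G10040, AT2G17850 and AT1G19530) and 5 by probe set. The latter are ADH1, PDC1, SUS4, AHB1 and LBD41, for which the platform annotation lists no gene, so their names rest on the selection alone. Of 22746 probe sets without controls on the array, 16073 passed a filter on low values, which asked for 2 or more of the 24 arrays to read 30 or above, and all 10 genes were among them. The choice was made with the root values of these arrays known. Root levels and root changes of the 10 genes are therefore given as a description with no test, and tests on them are given for shoots, where 6 of the 10 were below an intensity of 30 on every array and so passed the filter through roots alone.

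The plants were ecotype Col-0, with no mutation or transgene named in the labels, raised at 24 °C on Murashige and Skoog medium, under a 16 h photoperiod with humidity at 50%. Cold began 3 h into the light period of day 16, when boxes of plants went onto ice in a 4 °C room, and shoots and roots were taken after 0.5, 1, 3, 6, 12 and 24 h, with 2 Affymetrix ATH1 arrays for each of the 12 groups. There was no untreated group among these samples, so changes are against 0.5 h in the cold, and the harvests at 3, 6 and 12 h fell at other times of day than that at 0.5 h, so effects of cold and of the daily rhythm cannot be told apart there. Separate cultures for the 2 arrays of a group are not stated in the labels, so p-values measure no more than the scatter of these arrays, which can be technical.

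When oxygen runs low, plant cells make ATP by glycolysis and keep it going by fermentation. Pyruvate decarboxylase (PDC) turns pyruvate into acetaldehyde and alcohol dehydrogenase (ADH) turns that into ethanol, while sucrose synthase (SUS) feeds sugar into the pathway and class 1 hemoglobin (AHB1) removes nitric oxide. The transcription factors of the RAP2.12 group, which are destroyed through the N-degron pathway while oxygen is present, switch these genes on. The trihelix factor HRA1 dampens RAP2.12, and LBD41 is a LOB-domain factor of the same response. AT4G10270 encodes a protein of the wound-responsive family and AT2G17850 a rhodanese-like protein. AT1G33055 and AT1G19530 are of unknown function. ADH1 is also known to answer cold and abscisic acid.

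The tissue labels were checked first. The summed intensity of 4 root markers (PYK10, EXPA7, EXPA18 and OSM34) was 4481 to 5886 on root arrays and 432 to 805 on shoot arrays. That of the 3 measured green-tissue markers of 5 listed (RCA, LHCB4.2 and SBPASE) ran from 9048 to 15845 in shoots and from 99.6 to 355 in roots, and none of these 3 was at 0 in roots. On 2 arrays, roots 3 h replicate 2 and shoots 1 h replicate 1, the GAPDH 3′ control read 491 and 309 and the ubiquitin middle control 476 and 412, against at least 799 and 887 on all others. The 25S rRNA control read 212 and 246 on the shoot arrays at 0.5 h, against 889 to 1862 on the later shoot arrays. Across probe sets the Pearson r of the arrays of a pair was 0.951 to 0.991.

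In roots 9 of the 10 genes fell into 3 patterns over the day, a grouping made after their values were seen. HRA1, AT4G10270, AT1G33055, AT2G17850 and LBD41 were high in the first hour and low from 6 or 12 h on. SUS4 and AHB1 had their lowest level at 24 h, below every earlier array. ADH1 and PDC1 were higher at 12 and 24 h than at any earlier time. AT1G19530 was in none of these and had overlapping arrays at every neighbouring step in the order of its levels.

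**Figure D1:**
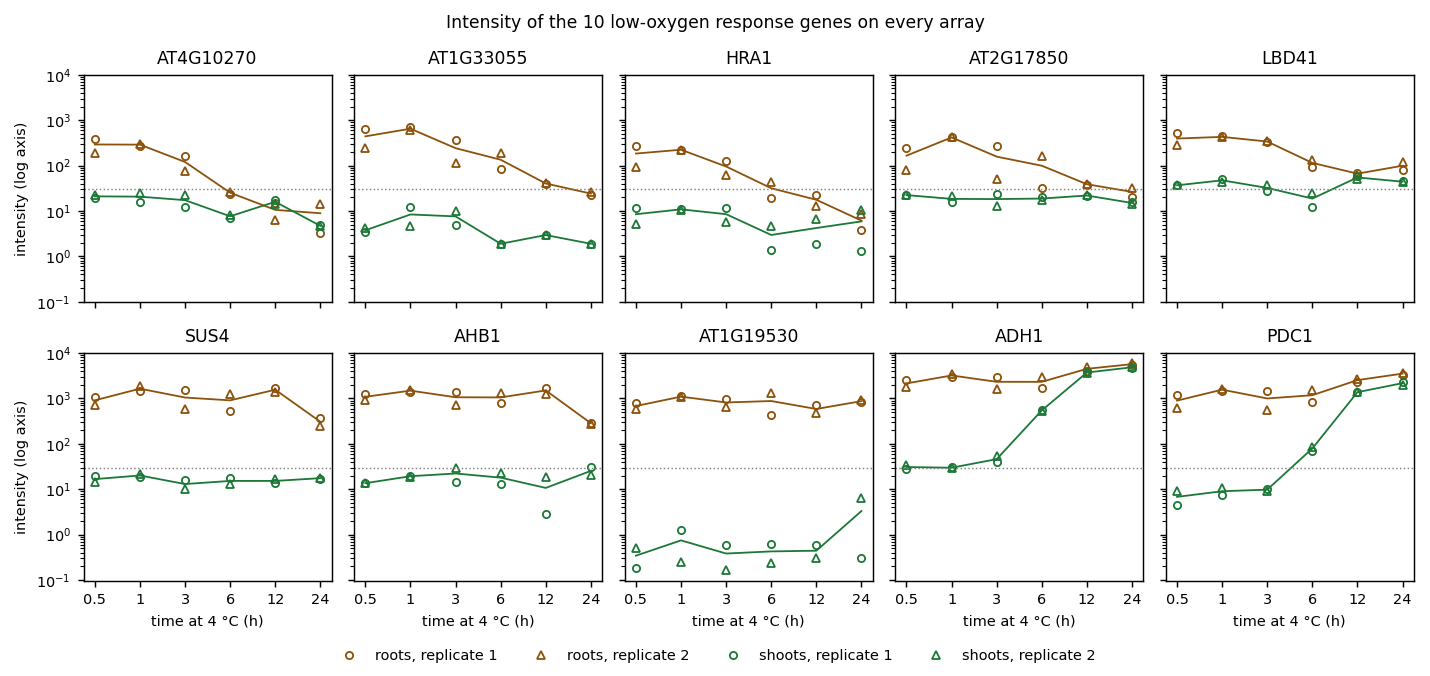
Intensity (log axis) of the 10 genes against time at 4 °C (h) in roots (brown) and shoots (green), with replicate 1 as circles, replicate 2 as triangles, the mean of the 2 arrays as a line and an intensity of 30 dotted. The root values of HRA1 and AT4G10270 overlap the shoot values at 24 h, and the shoot values of ADH1 and PDC1 climb from about 30 or below to at least 2016.

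Both regulators stood at lower levels from 6 h on. In roots HRA1, which attenuates the response, read 274 and 94.3 at 0.5 h (replicates 1 and 2), 222 and 225 at 1 h and 128 and 63.1 at 3 h. It then read 19.0 and 44.6 at 6 h, 22.5 and 12.8 at 12 h and 3.88 and 8.41 at 24 h. All arrays from 6 h on lay below both arrays of 0.5 h and 1 h, and the log2 difference on the log2(value + 10) scale, 24 h minus 0.5 h, was −3.43 ± 0.42 (SE of the fit). This scale understates the change of dim genes. The SE of the fit pools the scatter of a gene over all 12 groups of both tissues. It need not show the scatter of a given pair, such as −1.45 (replicate 2 minus replicate 1) for HRA1 in roots at 0.5 h. LBD41 read 512 and 278 at 0.5 h, 438 and 421 at 1 h and 324 and 354 at 3 h, and the 0.5 h arrays overlapped those of 1 h and of 3 h, while both 3 h arrays lay below both of 1 h. It read 95.1 and 134 at 6 h, 70.0 and 63.0 at 12 h and 80.1 and 119 at 24 h, with its lowest level at 12 h (−2.34 ± 0.25 against 0.5 h).

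AT4G10270, AT1G33055 and AT2G17850 followed a similar course. AT4G10270, the wound-responsive family gene, read 395 and 189 at 0.5 h, 273 and 306 at 1 h and 163 and 77.8 at 3 h. The 6 h arrays were at 24.1 and 26.5, those of 12 h at 14.8 and 6.44, and those of 24 h at 3.22 and 14.6, so all arrays from 6 h on were under 30. Its log2 difference to 0.5 h was −3.01 ± 0.35 at 6 h and −3.98 ± 0.35 at 24 h. AT1G33055 read 632 and 249.9 at 0.5 h, 700.5 and 598 at 1 h, 368 and 116 at 3 h and 83.0 and 186 at 6 h. It ended at 40.0 and 40.7 at 12 h and 22.4 and 26.0 at 24 h, a log2 difference of −3.58 ± 0.43. AT2G17850, the rhodanese-like gene, stood highest at 1 h, where both arrays (418 and 416) were above both of 0.5 h (250.2 and 81.0). It read 266 and 49.5 at 3 h, 32.3 and 166 at 6 h, 38.1 and 39.7 at 12 h and 20.0 and 32.7 at 24 h.

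The carbon-supply gene SUS4 and the hemoglobin gene AHB1 were high through 12 h and low at 24 h. SUS4, which cleaves sucrose for glycolysis, read 1094 and 726 at 0.5 h, 1436 and 1848 at 1 h, 1518 and 578 at 3 h and 538 and 1279 at 6 h. It was at 1734 and 1383 at 12 h and then at 363 and 252 at 24 h, below all 10 earlier root arrays. AHB1 read 1234 and 943 at 0.5 h, 1405 and 1569 at 1 h, 1390.4 and 736 at 3 h and 783 and 1326 at 6 h. Its 12 h arrays (1727 and 1280.3) overlapped those of 1 h, and its 24 h arrays (290.3 and 279) lay below all others. The log2 differences between 24 h and 0.5 h were −1.53 ± 0.38 for SUS4 and −1.89 ± 0.36 for AHB1.

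The fermentation genes had their highest root levels at 24 h. ADH1 read 2539.9 and 1753 at 0.5 h, 2928 and 3489.9 at 1 h, 3022 and 1633 at 3 h and 1707 and 2938 at 6 h. It then read 4051 and 4953 at 12 h, then 5408 and 5991 at 24 h, with no overlap between 12 h and any earlier time or between 12 h and 24 h. PDC1 was likewise highest at 24 h and next at 12 h, with 1175 and 619 at 0.5 h, 1475 and 1650.2 at 1 h, 1454 and 547 at 3 h and 842 and 1518 at 6 h. It read 2343 and 2732 at 12 h, then 3322 and 3728 at 24 h. At 24 h the log2 difference to 0.5 h was 1.43 ± 0.26 for ADH1 and 2.03 ± 0.35 for PDC1. Against 1 h, where both genes were higher than at 0.5 h, it was 0.83 ± 0.26 and 1.17 ± 0.35. AT1G19530 read 788 and 577 at 0.5 h, 1143 and 1051 at 1 h and 816 and 932 at 24 h, with 443 to 1314 in between.

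At 1 h all 10 genes had a positive log2 change in roots, and 6 had both arrays above both of 0.5 h, as did 14.8% of all tested probe sets. The choice of the genes used these contrasts, so nothing is read from that count. The median log2 change of the 10 genes was 0.64, −0.12, −0.47, −0.94 and −1.87 at 1, 3, 6, 12 and 24 h, beside 0.00, −0.04, −0.08, −0.13 and −0.21 for all tested probe sets. Single arrays decided much of these medians. Without roots 0.5 h replicate 1 they were 1.03, 0.31, 0.02 and −0.45 at 1, 3, 6 and 12 h, and without roots 0.5 h replicate 2 they were 0.30, −0.49, −0.99 and −1.43. The median was 0.44 at 3 h without roots 3 h replicate 2 and −0.62 without replicate 1, and at 6 h it was 0.25 without roots 6 h replicate 1 and −1.29 without replicate 2. At 24 h it stayed between −2.18 and −1.38 whichever array was left out.

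**Figure D2:**
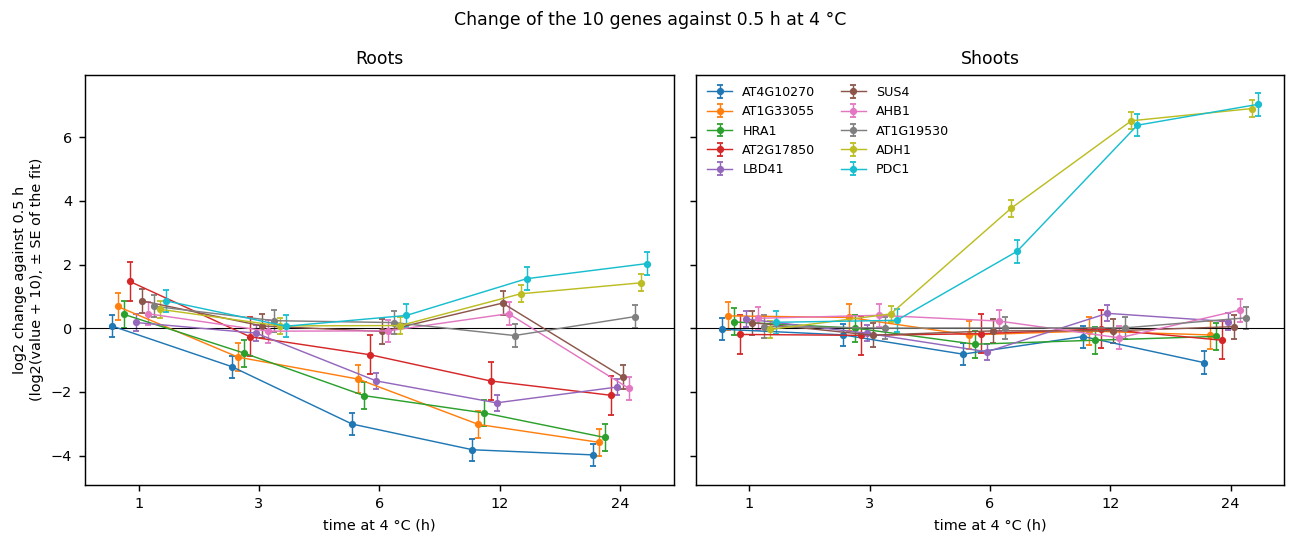
Log2 change of the 10 genes against 0.5 h on the log2(value + 10) scale, with the SE of the fit as bars, at 1 to 24 h at 4 °C in roots (left) and shoots (right). In roots 7 genes are spread between −1.53 and −3.98 at 24 h while ADH1 and PDC1 are at 1.43 and 2.03, and in shoots ADH1 and PDC1 stand at 6.90 and 7.03 apart from the other 8.

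The 2 root arrays of 0.5 h differed in all 10 genes. Replicate 2 was below replicate 1 for each, with a median log2 difference of −0.89 (replicate 2 minus replicate 1) and a range from −0.38 for AHB1 to −1.51 for AT2G17850. HRA1 read 274 against 94.3 and AT1G33055 632 against 249.9 on these arrays, while the median difference over all tested probe sets was 0.03. Replicate 2 was higher in 55.6% of all tested probe sets. In 4 of the 10 genes the gap was at least 2-fold, as it was in 0.666% of tested probe sets in the same direction. The genes were chosen with these arrays known, so nothing is read from these counts.

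Pairs at 3 h and 6 h also differed, in opposite directions. At 3 h replicate 2 was lower for 9 of 10 genes, with a median of −0.95 and the exception of LBD41 (324 and 354). At 6 h replicate 2 was higher for 10 of 10, with a median of 0.88 and a range from 0.10 for AT4G10270 to 2.06 for AT2G17850. Of all tested probe sets, 48.3% were higher on replicate 2 at 3 h and 45.6% at 6 h. The choice of the genes used these root arrays too, so nothing is read from the counts. At 1, 12 and 24 h the medians were 0.09, −0.23 and 0.18, and in shoots, where 6 of the 10 genes were below 30 on every array, they lay between −0.03 and 0.13 at all 6 times. Which array of such a pair stands off cannot be read from the pair.

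**Figure D3:**
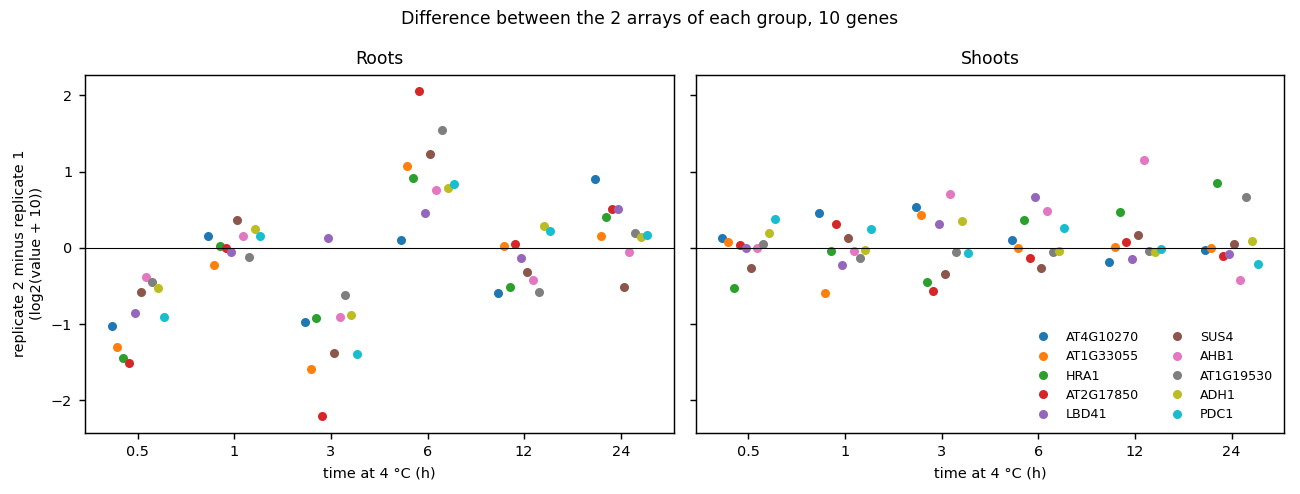
Difference of replicate 2 minus replicate 1 on the log2(value + 10) scale for the 10 genes in each group, by time at 4 °C (h), in roots (left) and shoots (right), with 1 point per gene. In roots the 10 points lie together below 0 at 0.5 h and above 0 at 6 h, and 9 of 10 lie below 0 at 3 h.

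Marker and control values of the same pairs are given here, and their part in the differences was not tested. The summed intensity of the 3 green-tissue markers on replicates 1 and 2 of roots was 173 and 266 for 0.5 h, 159 and 352 for 3 h and 212 and 215 for 6 h. It was 242 and 355 for 1 h. The summed intensity of the 4 root markers was 5052 and 5114 at 0.5 h, 4949 and 4850.2 at 3 h and 5245 and 5886 at 6 h. PYK10 and OSM34 make up most of that sum. EXPA7, a root hair expansin, read 96.6 and 47.4 at 0.5 h, 37.7 and 119.6 at 3 h and 33.9 and 76.8 at 6 h. EXPA18, another, read 92.5 and 52.6, 42.2 and 118.8, and 32.2 and 88.8 at these times. Both expansin genes were thus lower on replicate 2 at 0.5 h and higher on it at 6 h, as the 10 genes were. They were higher on it at 3 h, where 9 of the 10 genes were lower. The other root markers, PYK10 (3649 and 3674) and OSM34 (1214 and 1340), were higher on replicate 2 at 0.5 h, unlike the 10 genes. At 3 h PYK10 was lower on it (3025 and 2750) and OSM34 higher (1844 and 1862), and at 6 h both were higher. Roots 3 h replicate 2 is 1 of the 2 arrays with low GAPDH 3′ and ubiquitin controls, and the ratio of the GAPDH 3′ to 5′ control was 0.353 on it. At 0.5 h that ratio was 0.948 and 0.965, and at 6 h 1.09 and 1.30. In bulk tissue, fewer cells of a type and less RNA per cell cannot be told apart.

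Across the 12 root arrays the genes of a group followed each other, and the groups were drawn from these same values. HRA1 and AT1G33055 had a Pearson r of 0.978, HRA1 and AT4G10270 of 0.977, ADH1 and PDC1 of 0.987 and SUS4 and AHB1 of 0.962. ADH1 had an r of −0.47 with HRA1 and of −0.08 with SUS4. Between the group of HRA1 and that of SUS4 and AHB1 all r were positive. They ran from 0.279 (LBD41 and SUS4) to 0.665 (AT2G17850 and SUS4). AT1G19530, in no group, had an r of 0.634 with AT2G17850 and of 0.106 with AHB1. These values share arrays, replicate pairs and time course, and are a description.

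Probe sets outside the 10 were ranked by their likeness to the mean profile of the 10 genes, each scaled to mean 0 and SD 1, over the same 12 root arrays. Among 1258 annotated probe sets with an SD of at least 0.5, the 8 most alike were AT5G10040 (r = 0.971), AT3G03270 (0.92), AT4G39675 (0.906), AT5G44730 (0.887), AT4G33560 (0.854), AT3G29970 (0.852), AT3G27220 (0.82) and AT2G37480 (0.805). The first 7 are on the list of other low-oxygen genes described below. That list was set with earlier results on these arrays known, so nothing is read from this count. AT5G10040 read 206 and 80.2 at 0.5 h, 380.2 and 413 at 1 h, 334 and 28.6 at 3 h and 23.8 and 163 at 6 h. It ended at 15.1 and 17.0 at 24 h. The ranking used these same arrays, so its likeness includes the differences within pairs. ADH1 and PDC1 themselves had an r of −0.04 and −0.07 with the mean profile.

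In shoots ADH1 and PDC1 rose, and the other 8 genes read 58.2 or less on every array. ADH1 read 28.1 and 33.7 at 0.5 h, 30.3 and 29.4 at 1 h, 39.4 and 52.9 at 3 h, 553 and 539 at 6 h, 3802 and 3647 at 12 h and 4715 and 5009 at 24 h. From 3 h on each pair lay above the pair before it. It rose by 3.77 ± 0.26 (SE) on the log2 scale at 6 h (limma adjusted p = 7e-09), by 6.52 ± 0.26 at 12 h (adjusted p = 2.5e-12) and by 6.90 ± 0.26 at 24 h (adjusted p = 1.3e-12).

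PDC1, the enzyme before ADH in the pathway, rose at the same times in shoots. It read 4.61 and 9.004 at 0.5 h, 7.43 and 10.7 at 1 h, 10.3 and 9.35 at 3 h, 71.4 and 87.2 at 6 h, 1380.0 and 1370.0 at 12 h and 2333 and 2016 at 24 h. Both arrays of 6 h were above all arrays up to 3 h, and the next 2 times were each higher again. The rise was 2.42 ± 0.35 at 6 h (limma adjusted p = 6.6e-05), 6.38 ± 0.35 at 12 h (adjusted p = 1.6e-10) and 7.03 ± 0.35 at 24 h (adjusted p = 3.6e-11). With 1 h as the baseline, which leaves the 0.5 h arrays out, the 24 h rises were 6.93 ± 0.26 for ADH1 and 6.84 ± 0.35 for PDC1.

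The distance between the tissues in these 2 genes was smaller at 24 h than at 0.5 h. The log2 level in roots minus that in shoots was 5.70 ± 0.26 for ADH1 at 0.5 h and 0.23 ± 0.26 at 24 h. For PDC1 it was 5.70 ± 0.35 and 0.70 ± 0.35. The root and shoot arrays of AT4G10270 overlapped at 12 h and 24 h, and those of HRA1 at 24 h. As the root values chose the genes, these differences carry no test.

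The other 8 genes in shoots showed little that passed the test. SUS4, AT1G33055, HRA1, AT2G17850 and AT1G19530 were under 30 on all 12 shoot arrays, and AHB1 reached 30 on 2 (30.05 and 30.5). LBD41 read 36.8 and 36.8 at 0.5 h, then 12.3 and 25.3 at 6 h, and it fell by 0.74 ± 0.25 on the log2 scale (limma adjusted p = 0.046). This call was lost in 8 of 14 alternatives, among them median centring (adjusted p = 0.098) and leaving out shoots 6 h replicate 1 (0.39). At 12 h LBD41 read 58.2 and 51.5, above both 0.5 h arrays, with a change of 0.47 ± 0.25 (adjusted p = 0.15). AT4G10270 changed by −0.81 ± 0.35 at 6 h and did not pass (limma adjusted p = 0.11). It did with limma fitted over the shoot arrays alone (0.015) and with array weights (0.048). It read 19.6 and 22.5 at 0.5 h, against 4.83 and 4.60 at 24 h, a log2 change of −1.07 ± 0.35 (limma adjusted p = 0.015). All of its shoot arrays were below 30 and it was tested only because it passed the filter in roots, so these values have little weight. The 24 h call was lost without shoots 0.5 h replicate 2, shoots 24 h replicate 1 or shoots 24 h replicate 2.

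Over the 10 genes in shoots, limma called 0 at 1 h and 0 at 3 h, and 0 had an unadjusted p under 0.05 at either time. Of all tested probe sets 2.82% and 7.7% were called (higher in 1.82% at 1 h, with 5.29% higher against 2.41% lower at 3 h). At 6 h 2 were higher and 1 lower (background 21.7%, of which 9.74% higher and 11.9% lower). At 12 h 2 were higher and none lower (40.4%, of which 14% higher and 26.3% lower), and at 24 h 2 were higher and 1 lower (53.5%, of which 19.2% higher and 34.3% lower). The median change of the 10 genes was 0.18, 0.01, −0.13, −0.05 and 0.13 at the 5 times, beside −0.02, −0.09, −0.12, −0.17 and −0.20 over all tested probe sets. As 6 of the 10 genes were below 30 on every shoot array, nothing is read from these counts against the shares over all probe sets.

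Other genes of the pathway came from a list of 73 loci: 33 further genes of the core low-oxygen response, 15 of oxygen sensing and 25 of carbon metabolism and hemoglobins. Of these 22 had an annotated and tested probe set, 18 of the core and 4 of carbon metabolism, and none of the sensing genes did, so RAP2.12, the HRE factors and the plant cysteine oxidases are not analysed here. The list comes from general knowledge, was set with earlier results on these arrays known, and is no independent evidence of a direction.

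In roots genes of the list went both ways. At 24 h 11 of 22 fell and 6 rose, with a median of −0.66 beside −0.21 over all tested probe sets, of which 48% were called (15.5% higher and 32.5% lower). AT4G27450 went from 1539.9 and 1134 at 0.5 h to 147 and 175 and fell by 2.97 ± 0.32 (SE; limma adjusted p = 1.3e-06). AT3G27220 fell by 2.97 ± 0.27 (258 and 126 to 12.2 and 16.9). AT4G33560, another wound-responsive family gene, fell by 2.68 ± 0.44, and AT5G10040 fell by 2.42 ± 0.73. AT3G27220, AT4G33560 and AT5G10040 were below 30 on every shoot array and on both root arrays of 24 h. They passed the filter only through earlier root arrays, where they were high. Their falls are therefore given without a p-value, and nothing is read from the count of falls.

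Other genes of the list rose in roots. PDC2, a second pyruvate decarboxylase, went from 210.4 and 142 at 0.5 h to 882 and 1166 at 24 h, a rise of 2.48 ± 0.27 (adjusted p = 1.4e-06). CML38, a calmodulin-like protein, rose by 3.54 ± 0.51 at 6 h (adjusted p = 0.00015), where it read 751 and 781, and by 1.97 ± 0.51 at 24 h (adjusted p = 0.0044). AT1G72940 rose by 2.21 ± 0.36 at 6 h (adjusted p = 0.00044). At 6 h 4 of 22 rose and 3 fell, and at 12 h 6 rose and 6 fell, beside 7.61% (5.23% higher, 2.38% lower) and 27.7% (9.93% higher, 17.8% lower) called over all. At 3 h 3 of 22 rose, CML38, AT1G72940 and AT3G23170, beside 2.45% called over all (2.13% higher, 0.317% lower). At 1 h limma called 0 of 22, with 7 at an unadjusted p under 0.05 and a median of 0.51, and 0.0187% of all tested probe sets were called.

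The 24 h count in roots, 17 of 22, was 11 without roots 0.5 h replicate 1. Within that pair 16 of the 22 other genes were lower on replicate 2, as were 15 of 22 at 3 h, and 19 of 22 were higher on replicate 2 at 6 h. Replicate 2 was higher in 55.6%, 48.3% and 45.6% of all tested probe sets at 0.5, 3 and 6 h. As the list was set with earlier results on these arrays known, nothing is read from these counts.

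In shoots 7 of 22 rose and 4 fell at 24 h (median 0.17 beside −0.20). Of all tested probe sets 53.5% were called (19.2% higher and 34.3% lower). AT3G27220, AT3G29970, AT4G24110, AT4G33560, AT4G39675, AT5G10040 and AT5G66985 were below 30 on every shoot array and passed the filter through roots alone. AT4G39675, counted as a rise, went from 0.383 and 0.360 at 0.5 h to 17.2 and 17.8. Nothing is therefore read from the counts of the list in shoots at any time. The list was not tested between the tissues. PDC2 rose by 4.03 ± 0.27 at 12 h (68.7 and 35.7 to 1031 and 908; limma adjusted p = 1.9e-09) and by 3.56 ± 0.27 at 24 h (adjusted p = 7.5e-09). The lactate dehydrogenase gene AT4G17260 rose by 1.55 ± 0.20 at 24 h (88.5 and 89.1 to 303 and 256; adjusted p = 4.4e-06). AT5G44730 rose in shoots by 1.54 ± 0.27 (adjusted p = 0.00014) and fell in roots by 1.72 ± 0.27 (adjusted p = 7.7e-05). AT4G27450 fell in both, by 3.09 ± 0.32 in shoots (adjusted p = 3.7e-07), and AT1G72940 fell by 2.70 ± 0.36 (adjusted p = 6.3e-06).

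CML38 and AT3G23170 had an early peak in shoots. CML38 read 1435 and 1503 at 3 h, against 19.9 and 72.6 at 0.5 h, a rise of 4.90 ± 0.51 (limma adjusted p = 3.1e-06), and it was back at 36.0 and 41.3 at 24 h. AT3G23170 rose by 4.46 ± 0.27 at 3 h (13.3 and 29.8 to 648 and 677; limma adjusted p = 4.2e-09). At 1 h 2 of 22 rose, AT3G23170 and AT4G17670, and the count was 1 without shoots 0.5 h replicate 1 or shoots 1 h replicate 1 (background 2.82%, 1.82% higher). At 3, 6 and 12 h 4, 7 and 7 of 22 rose, beside 5.29%, 9.74% and 14% of all tested probe sets. At the same times 0, 0 and 2 fell, beside 2.41%, 11.9% and 26.3% (7.7%, 21.7% and 40.4% called in either direction). GAPC2, a glycolytic enzyme, had log2 changes between −0.19 and 0.15 over the 10 comparisons and passed the test in none (lowest adjusted p 0.17).

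**Figure D4:**
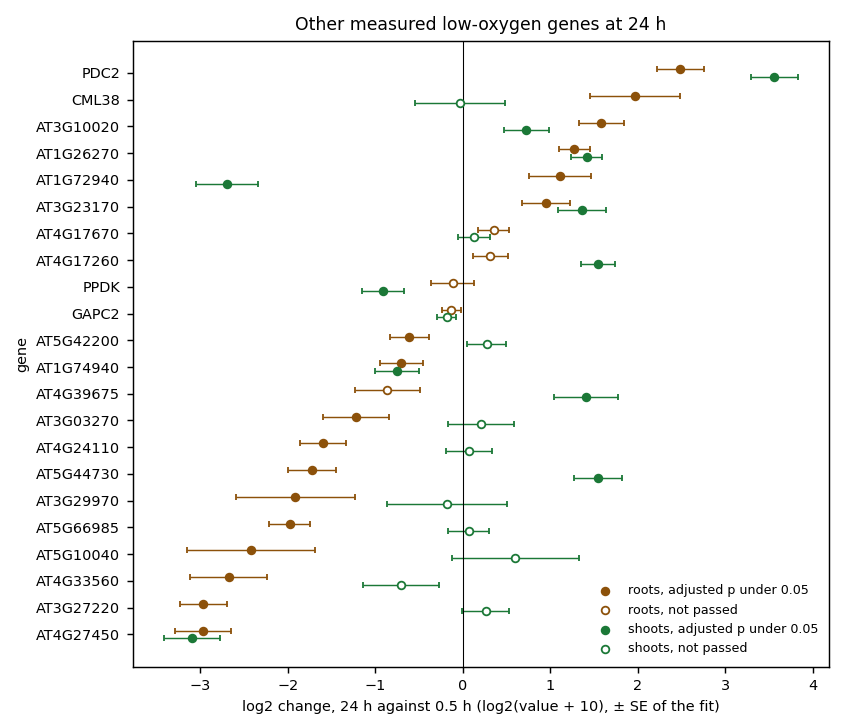
Log2 change at 24 h against 0.5 h on the log2(value + 10) scale, with the SE of the fit as bars, of the 22 other measured low-oxygen genes in roots (brown) and shoots (green), with filled points at a limma adjusted p under 0.05 and open points for genes that did not pass. PDC2 is the highest in both tissues, and 11 filled brown points lie below 0. Among the latter are AT3G27220, AT4G33560 and AT5G10040, which passed the filter only through earlier root arrays.

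Of 11 listed touch and wound genes 3 were measured, CML38, WRKY53 and STZ. All arrays are from chilled plants, so touch, wounding and cold cannot be told apart in their values. Their summed intensity was 678 and 563 on the root arrays at 0.5 h, 1460 and 1246 at 1 h, 2718 and 2918 at 3 h and 3373 and 3417 at 6 h. STZ makes up most of that sum. CML38 read 82.4 and 38.0 at 0.5 h, 482 and 258 at 3 h and 751 and 781 at 6 h, and so was lower on replicate 2 at 0.5 h and 3 h. WRKY53 was higher on replicate 2 at 0.5 h (24.8 and 33.8) and lower on it at 3 h (53.7 and 49.5), and it passed the test at no time in roots. STZ was lower on replicate 2 at 0.5 h (571 and 492) and higher on it at 3 h (2182 and 2610). CML38 is also on the list of other low-oxygen genes. The part of these 3 genes in the results was not tested.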

How the data were processed

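The deposited values are linear intensities of ATH1 probe sets, for which the submitters' processing notes name MAS5, and the mean after trimming 2% at each end was 100 on every array. The settings used are not stated. Control probe sets (64 of 22810) were left out. Intensities were analysed as log2(value + 10) for the 16073 probe sets at 30 or more on at least 2 of 24 arrays. One mean per group was fitted over all 24 arrays with limma 3.58.1 in R 4.3.3 (12 residual degrees of freedom), p-values were adjusted over all tested probe sets by Benjamini-Hochberg, and an adjusted p under 0.05 was a call. The fit was tested on simulated data. Genes were named through the platform annotation (13513 probe sets with 1 gene, 503 with several, 8730 with none), and no coordinates or sequences are given. The 10 genes and the lists were chosen with earlier results of these data known. From each list up to 4 called genes with the largest changes per comparison are named, beside the 10 genes and the 8 most alike profiles. Alternatives were other pseudocounts, no filter, median centring, quantile normalization, a fit per tissue, array weights, a replicate block, 1 h as the baseline and leaving out single arrays. The number of arrays limits the precision.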

Additional observations from a re-analysis of the deposited data

Results flagged for a closer look

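Against 0.5 h, LBD41 moved in opposite directions in the tissues at the last 2 times. In roots its log2 change against 0.5 h was −2.34 at 12 h and −1.85 at 24 h, with both root arrays below both of 0.5 h. In shoots both arrays were above both of 0.5 h at the same times, with changes of 0.47 and 0.21 that did not pass limma's test (adjusted p = 0.15 and 0.51). Against 1 h, where the shoot arrays read 51.8 and 43.1, the shoot changes were 0.18 ± 0.25 at 12 h and −0.08 ± 0.25 at 24 h. Those in roots were −2.52 ± 0.25 and −2.03 ± 0.25. The shoot rise at 24 h thus rests on the 0.5 h baseline. The difference between the tissues was not tested.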

How the results depend on the processing

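The rises of ADH1 and PDC1 in shoots at 6, 12 and 24 h passed the test under every alternative run. No called value changed sign. With a pseudocount of 1 the other low-oxygen genes called in roots at 6 h were 4 in place of 7. With 1 h as the baseline the median of the 10 genes in roots was −0.79 at 3 h and −1.72 at 12 h, and limma called 0 of the other genes in roots at 3 h in place of 3 (7 at an unadjusted p under 0.05). Leaving out 1 array at a time gave 1 to 2 calls among the other genes in shoots at 1 h and 11 to 14 in roots at 24 h (17 with all arrays), and root medians of 0.30 to 1.03, −0.62 to 0.44, −1.29 to 0.25, −1.43 to −0.45 and −2.18 to −1.38 at 1, 3, 6, 12 and 24 h. The call of LBD41 in shoots at 6 h was lost with a pseudocount of 50 (adjusted p = 0.2), no filter (0.065), median centring (0.098) and quantile normalization (0.091), and that of AT4G10270 at 24 h with a pseudocount of 50 (0.17). The cause was not tested. Replicate numbers gave no pairing common to all groups: over 16 pairs of groups the correlation of the replicate differences was −0.451 to 0.33. The 2 above 0.1 were 1 h with 0.5 h in roots (0.33) and in shoots (0.185), and the lowest was roots 6 h with 0.5 h. The cause of these correlations was not tested. With the number as a block, the log2 change of LBD41 in shoots at 6 h stayed at −0.74 and its adjusted p was 0.055, the only call among the 10 genes to change. Leaving out the 2 arrays with low control probes, roots 3 h replicate 2 and shoots 1 h replicate 1, was chosen after seeing the data; the root median at 3 h was then 0.44 and the calls among the other genes in roots at 24 h were 18.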
